A study of Homo sapiens with 6 samples.

Results

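Developing T cells settle on the helper (CD4) or the cytotoxic (CD8) lineage, and 9 genes of that choice were followed after SATB1 had been lowered in Jurkat cells. They encode the coreceptors CD4, CD8A and CD8B and the factors ZBTB7B, RUNX3, CBFB, TOX, PATZ1 and FOXP3. They were picked out by symbol in the GENCODE 29 annotation, with earlier results of these data known though by no threshold on their values, and are 9 of 58735 genes in the count tables and 9 of 17520 that passed the filter on low counts. Each of the 9 also passed that filter by the shSATB1 libraries alone and by the shCtrl libraries alone. The RNA-seq was done on Jurkat, a human line grown from a T cell leukaemia, after infection with a lentiviral vector. In the shSATB1 group (3 libraries, SATB1 knockdown) the vector carried a short hairpin RNA against SATB1, a chromatin organiser of T cells, and in the shCtrl group (3 libraries) a control hairpin. All 6 libraries come from the same cell line, with 1 vector per group, and no time after infection or separate culture per replicate is stated. The p-values therefore weigh differences only against the variation among these libraries, part or all of which may be technical.

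CD4 and CD8 bind class II and class I major histocompatibility molecules beside the T cell receptor, and their cytoplasmic tails carry the kinase LCK to it. Immature thymocytes carry both coreceptors, and positive selection leaves them with the coreceptor that matched their receptor. From mouse thymocytes it is known that ZBTB7B (ThPOK) fixes the CD4 fate, that RUNX3 with its partner CBFB shuts off CD4 and ZBTB7B in the CD8 fate, that TOX is needed for CD4 T cells to form, and that PATZ1 (MAZR) acts on the CD8 and ZBTB7B loci. FOXP3 is the defining factor of regulatory T cells. In mice SATB1 is known to act on enhancers of several of these genes during selection.

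SATB1 itself averaged 102.0 ± 1.94 CPM (its count relative to the total count of the library, with TMM scaling; means carry their SD, n = 3 per group throughout) in shSATB1 and 265.6 ± 11.6 CPM in shCtrl, so 38.4% of its level was left (edgeR log2 fold change -1.38, SE 0.0611, adjusted p = 1.11e-08). Reads in genes numbered 26626539 to 28143385 in the shSATB1 libraries and 27737353 to 28913623 in the shCtrl libraries. All 10 T cell markers looked at exceeded 1 CPM, and they summed to 2299 to 2452 CPM in shSATB1 and 2439 to 2829 CPM in shCtrl. Among them 1 rose and 5 fell at an adjusted p under 0.05 (edgeR), or 60% called. Of all genes tested 30.9% were called, 14.3% as rises and 16.6% as falls. Monocyte markers, of interest because monocytes can carry CD4, summed to 2.10 to 2.79 CPM in shSATB1 and 2.29 to 2.69 CPM in shCtrl, with 0 of 9 above 1 CPM and S100A8 at 0 reads. Natural killer cell markers, of interest because such cells can carry CD8A, summed to 1.02 to 1.83 CPM in shSATB1 and 0.836 to 1.33 CPM in shCtrl, with 1 of 6 above 1 CPM and KIR2DL4 at 0 reads. B cell markers summed to 48.4 to 56.8 CPM in shSATB1 and 55.8 to 65.6 CPM in shCtrl, nearly all of it CD79A, the 1 of 6 above 1 CPM. Reads outside annotated exons made up 11.4% ± 0.436 of a library in shSATB1 and 9.10% ± 1.23 in shCtrl, without overlap of the groups. For the genes named below, the adjusted p from a fit that holds this share as a covariate is given where that fit ends the call.

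Of the 9 genes, 3 rose in shSATB1 (ZBTB7B, RUNX3 and TOX) and 0 fell at an adjusted p under 0.05 (edgeR quasi-likelihood test, Benjamini-Hochberg adjustment over 17520 genes). ZBTB7B rose 2.02-fold, RUNX3 1.23-fold and TOX 1.15-fold. The coreceptor genes CD4, CD8A and CD8B, and CBFB, PATZ1 and FOXP3, did not pass the test. Over all genes tested, 30.9% were called, 14.3% as rises and 16.6% as falls, so 3 of 9 called is close to that share. The median log2 fold change was -0.01 over the 9 genes and 0.01 over all genes tested. The shSATB1 libraries lay wholly above the shCtrl libraries for the same 3 genes, against 21.7% of all genes tested, and wholly below them for 0 genes, against 23.4%; for the other 6 the groups overlapped, while 45.1% of all genes tested showed no overlap. DESeq2 and limma-voom also called 3 rises and 0 falls, and 0 of the 6 other genes had an unadjusted p under 0.05. In bulk RNA, a change in every cell and a change in the number of cells that carry a transcript, or fewer cells of a type and less RNA per cell, cannot be told apart.

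**Figure D1:**
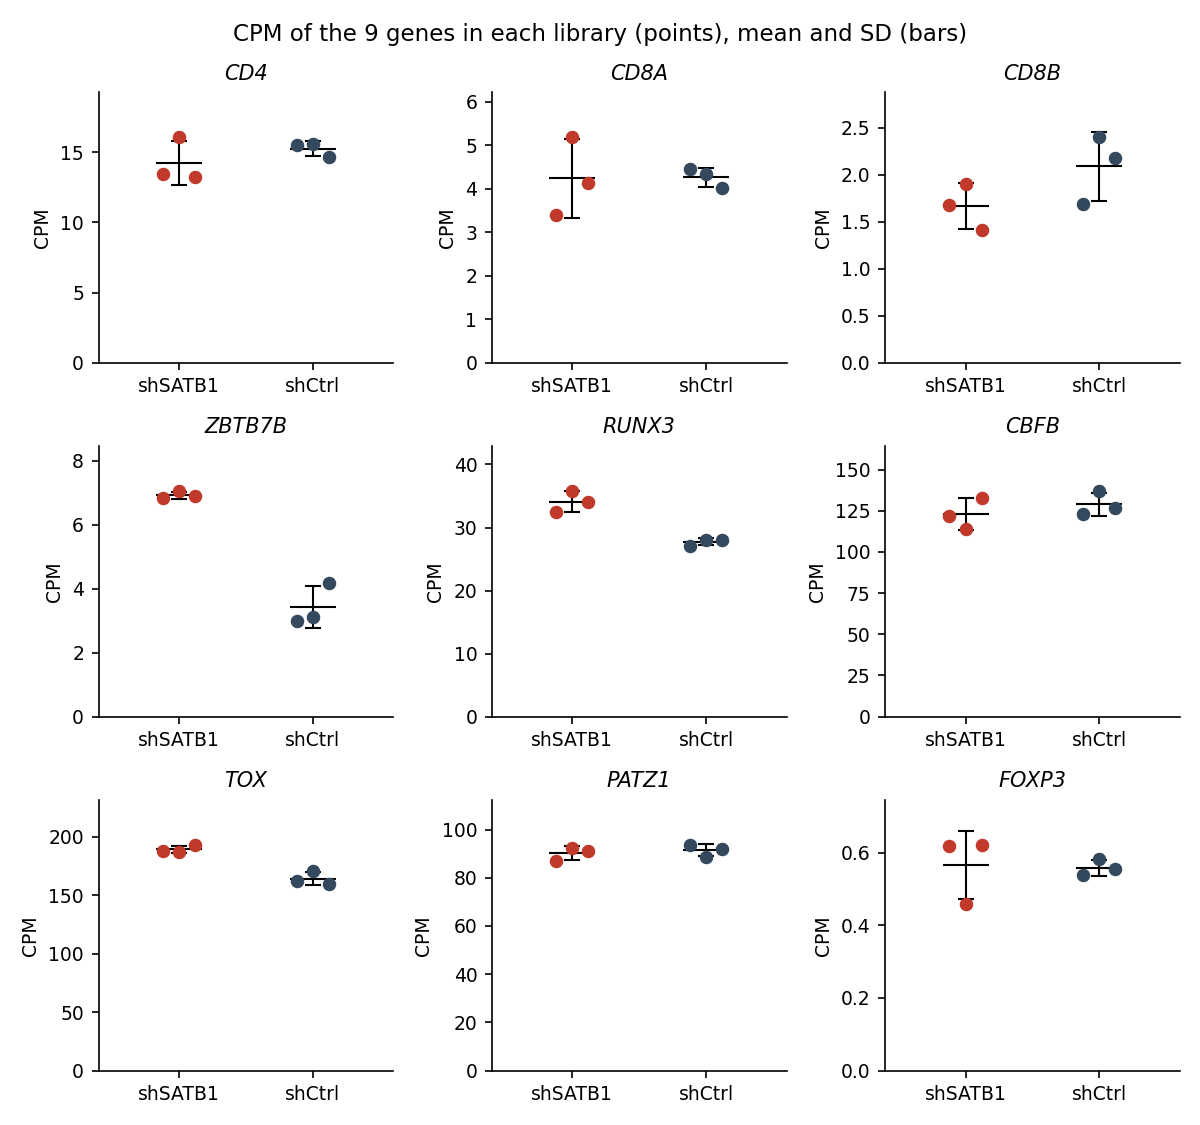
CPM of each of the 9 genes in the shSATB1 libraries (left) and the shCtrl libraries (right); points are libraries, bars the mean and SD of 3. ZBTB7B, RUNX3 and TOX show shSATB1 libraries wholly above shCtrl libraries, and the groups overlap for the other 6 genes.

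CD4 (ENSG00000010610, chromosome 12, 6786858 to 6820808, plus strand, hg38), the helper coreceptor gene, had 369, 456 and 385 reads in shSATB1 1, 2 and 3 and 433, 429 and 397 reads in shCtrl 1, 2 and 3. These correspond to 13.4, 16.1 and 13.3 CPM in shSATB1 and 15.5, 15.6 and 14.7 CPM in shCtrl. One shSATB1 library was the highest of all 6 and the other two were the lowest, so the groups overlapped. The log2 fold change was -0.10 (SE 0.0969, adjusted p = 0.482, edgeR), with a 95% interval of the level in shSATB1 relative to shCtrl from 0.809 to 1.08.

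CD8A (ENSG00000153563, chromosome 2, 86784610 to 86808396, minus strand) encodes the alpha chain, which forms CD8 as a pair with itself or with the beta chain. It had 3.39, 5.19 and 4.14 CPM in shSATB1 and 4.45, 4.33 and 4.03 CPM in shCtrl, from 93 to 147 reads per library. The lowest and the highest library were both shSATB1, and the group means were 4.24 ± 0.904 CPM in shSATB1 and 4.27 ± 0.218 CPM in shCtrl. The log2 fold change was -0.01 (SE 0.166, adjusted p = 0.972, edgeR; relative level 0.776 to 1.27, 95% interval), and its sign differed between settings. CD8B (ENSG00000172116, chromosome 2, 86815339 to 86861924, minus strand), the beta chain gene, lies 6943 bases from CD8A. It had 1.67, 1.91 and 1.41 CPM in shSATB1 and 1.69, 2.40 and 2.18 CPM in shCtrl, from 41 to 66 reads per library. The shSATB1 libraries lay at the lower side of the shCtrl range with an overlap, and the log2 fold change of -0.33 (SE 0.217, adjusted p = 0.277, edgeR) left a relative level between 0.578 and 1.10. With the covariate the sign turned (log2 fold change 0.17, adjusted p = 0.844), and a change of CD8B within those bounds was not detectable at this depth. CD8B has a near-identical copy, CD8B2, which had 0 reads in all 6 libraries; reads without a unique alignment were not assigned to genes, so CD8B counts may miss reads that fit both copies. Of the merged CD8B exons 98 of 1864 bases are also exon of the pseudogene ANAPC1P1, which lies on the opposite strand and had 35 reads in all libraries together.

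Per kilobase of merged exons, the ratio of CD4 to CD8A was 3.15, 2.46 and 2.54 in shSATB1 1, 2 and 3 and 2.77, 2.86 and 2.89 in shCtrl 1, 2 and 3. The shCtrl values lay inside the range of the shSATB1 values. The ratio of CD8A to CD8B was 1.04, 1.40 and 1.50 in shSATB1 and 1.35, 0.925 and 0.948 in shCtrl, with overlap. Transcripts of both coreceptor classes were thus present in the same RNA, with CD4 the most abundant per length, and no shift between them was seen beyond the spread of libraries.

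ZBTB7B (ENSG00000160685, chromosome 1, 155002630 to 155018522, plus strand), the CD4 fate factor, had 188, 200 and 200 reads in shSATB1 1, 2 and 3 and 83, 86 and 113 reads in shCtrl 1, 2 and 3. These correspond to 6.84, 7.06 and 6.90 CPM in shSATB1 and 2.98, 3.13 and 4.17 CPM in shCtrl. The shSATB1 libraries stood close together, all above shCtrl 3, the highest control. The means were 6.93 ± 0.110 CPM in shSATB1 and 3.43 ± 0.651 CPM in shCtrl, a log2 fold change of 1.02 (SE 0.147, adjusted p = 0.000211, edgeR) and a fold of 2.02 with a 95% interval from 1.63 to 2.52. Exact permutation of the library labels (two-sided) gave p = 0.1 for the ZBTB7B levels and likewise for RUNX3 and TOX; no smaller p can be had with 3 libraries per group. Among 2500 rises ZBTB7B ranked 289 by fold, RUNX3 1878 and TOX 2403. The ZBTB7B call held in each of 16 alternative settings, with log2 fold changes from 0.92 to 1.18 and adjusted p from 2.03e-09 to 0.00692, the highest with the covariate. Its exons share 3 bases with those of DCST2 on the opposite strand, which had 78 reads in all libraries together.

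RUNX3 (ENSG00000020633, chromosome 1, 24899511 to 24965121, minus strand), the CD8 fate factor, had 893, 1014 and 986 reads in shSATB1 1, 2 and 3 and 756, 772 and 758 reads in shCtrl 1, 2 and 3. On the CPM scale these were 32.5, 35.8 and 34.0 in shSATB1 and 27.1, 28.1 and 28.0 in shCtrl. The groups were separated, by a step that was small beside that of ZBTB7B. The means were 34.1 ± 1.63 CPM in shSATB1 and 27.7 ± 0.527 CPM in shCtrl, a log2 fold change of 0.30 (SE 0.0718, adjusted p = 0.00646, edgeR; fold 1.23, 95% interval 1.11 to 1.37). Tested for a change beyond 1.2-fold, RUNX3 did not pass (adjusted p = 0.471), and over the other settings adjusted p lay between 0.000982 and 0.0350. The ratio of ZBTB7B to RUNX3 per kilobase was 0.221, 0.207 and 0.213 in shSATB1 and 0.115, 0.117 and 0.157 in shCtrl. Each shSATB1 value thus exceeded each shCtrl value, though both genes rose.

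RUNX3 is known to be transcribed from a distal and a proximal promoter, which a count per gene cannot separate. Start regions of RUNX3 and ZBTB7B are shown next, from 250 bases before to 50 bases after an annotated start, as RefSeq gives them for GRCh38.p14. Such windows were matched by symbol for 4 of the 9 genes (CD8A, ZBTB7B, RUNX3 and FOXP3). For TOX, which also rose, there was thus no window to show. Only window 1 of ZBTB7B is shown. Capitals mark the core RUNX motif, searched as TGTGGT and its reverse complement ACCACA. The distal RUNX3 window is chr1:24964961-24965260 (minus strand), the proximal RUNX3 window chr1:24930227-24930526 (minus strand) and the ZBTB7B window chr1:155002399-155002698 (plus strand).
RUNX3 distal: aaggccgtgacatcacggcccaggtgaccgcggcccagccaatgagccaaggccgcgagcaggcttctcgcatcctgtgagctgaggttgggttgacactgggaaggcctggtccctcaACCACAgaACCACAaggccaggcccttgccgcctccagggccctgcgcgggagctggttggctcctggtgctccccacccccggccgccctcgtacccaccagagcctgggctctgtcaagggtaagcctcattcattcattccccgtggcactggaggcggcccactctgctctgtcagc
RUNX3 proximal: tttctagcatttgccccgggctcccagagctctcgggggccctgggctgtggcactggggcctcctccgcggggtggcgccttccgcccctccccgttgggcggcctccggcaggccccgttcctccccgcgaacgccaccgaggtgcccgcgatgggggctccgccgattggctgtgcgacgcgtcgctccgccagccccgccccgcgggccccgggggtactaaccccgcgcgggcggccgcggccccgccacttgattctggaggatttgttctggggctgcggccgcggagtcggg
ZBTB7B: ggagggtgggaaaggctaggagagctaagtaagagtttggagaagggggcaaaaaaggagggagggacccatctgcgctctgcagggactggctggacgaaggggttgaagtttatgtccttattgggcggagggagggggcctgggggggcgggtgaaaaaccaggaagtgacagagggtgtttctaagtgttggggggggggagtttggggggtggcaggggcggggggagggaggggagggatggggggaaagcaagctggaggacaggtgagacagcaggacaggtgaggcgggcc
The distal RUNX3 window held 2 matches, both ACCACA, at bases -131 to -126 and -123 to -118 from the start. The proximal RUNX3 window and both ZBTB7B windows held 0, as did the 4 windows of CD8A and the 1 of FOXP3. Of 35116 windows of all genes 13.1% held at least 1 match and 1.31% at least 2. G and C made up 66.3% of the distal and 76.0% of the proximal RUNX3 window and 62.3% of the ZBTB7B window shown. Among the windows of all genes these lay at percentiles 71.4, 92.6 and 60.3. The 4 CD8A windows held 57% to 65%, and the FOXP3 window held 41.3% (percentile 14.2).

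CBFB (ENSG00000067955, chromosome 16, 67029116 to 67101058, plus strand) encodes the subunit that stabilises RUNX proteins on DNA. It had 122.1, 113.7 and 132.9 CPM in shSATB1 and 123.2, 136.9 and 126.4 CPM in shCtrl, with 3222 to 3855 reads per library. The groups overlapped, and the log2 fold change was -0.07 (SE 0.0708, adjusted p = 0.505, edgeR; relative level 0.859 to 1.06, 95% interval). PATZ1 (ENSG00000100105, chromosome 22, 31325804 to 31346232, minus strand) had 86.9, 92.4 and 91.1 CPM in shSATB1 and 93.5, 88.8 and 92.1 CPM in shCtrl. Its groups overlapped as well, with a log2 fold change of -0.02 (SE 0.0600, adjusted p = 0.824, edgeR) and the tightest interval of the 6 genes without a call, from 0.901 to 1.08. The 95% intervals of CD4, CD8A, CD8B, CBFB and PATZ1 lay between 0.578 and 1.27, and so did not reach the fold of ZBTB7B.

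TOX (ENSG00000198846, chromosome 8, 58805418 to 59119208, minus strand), a high mobility group factor, had 5166, 5292 and 5597 reads in shSATB1 1, 2 and 3 and 4531, 4689 and 4316 reads in shCtrl 1, 2 and 3. On the CPM scale these were 188.1, 186.7 and 193.0 in shSATB1 and 162.6, 170.5 and 159.4 in shCtrl. The groups did not overlap, and the means were 189.3 ± 3.30 CPM in shSATB1 and 164.2 ± 5.74 CPM in shCtrl. The log2 fold change was 0.21 (SE 0.0587, adjusted p = 0.0168, edgeR; fold 1.15, 95% interval 1.06 to 1.26). The call was lost without shSATB1 replicate 1 (adjusted p = 0.0604), without shSATB1 replicate 3 (0.0726), without shCtrl replicate 3 (0.118) and against a 1.2-fold null (1.00), with adjusted p from 0.00117 to 0.0366 in the other settings. Of the TOX exons 169 of 4131 bases are also exon of AC090152.1, a gene on the opposite strand at 23.7 ± 2.12 CPM in shSATB1 and 23.6 ± 2.18 CPM in shCtrl (log2 fold change 0.01, of either sign among settings, adjusted p = 0.967, edgeR). The strand setting is not given, so whether reads of the shared bases were assigned by strand or left out as ambiguous is not known.

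FOXP3 (ENSG00000049768, chromosome X, 49250436 to 49264826, minus strand) was close to the limit of detection, with 17, 13 and 18 reads in shSATB1 and 15, 16 and 15 reads in shCtrl. That is 0.619, 0.459 and 0.621 CPM in shSATB1 and 0.538, 0.582 and 0.554 CPM in shCtrl, where 3 reads correspond to 0.103 to 0.111 CPM. The log2 fold change was 0.02 (SE 0.331, adjusted p = 0.970, edgeR), and the 95% interval of the relative level, 0.620 to 1.66, leaves changes of that size undetectable at this depth. The sign of FOXP3 differed between settings. Of the FOXP3 exons 91 of 2647 bases are also exon of CCDC22 on the opposite strand. CCDC22 had 21.1 ± 1.37 CPM in shSATB1 and 27.5 ± 0.581 CPM in shCtrl, and fell (log2 fold change -0.38, SE 0.0781, adjusted p = 0.0025, edgeR), a call lost with the covariate (adjusted p = 0.122) and against a 1.2-fold null (0.167). The part of these shared bases in the FOXP3 counts was not tested.

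**Figure D2:**
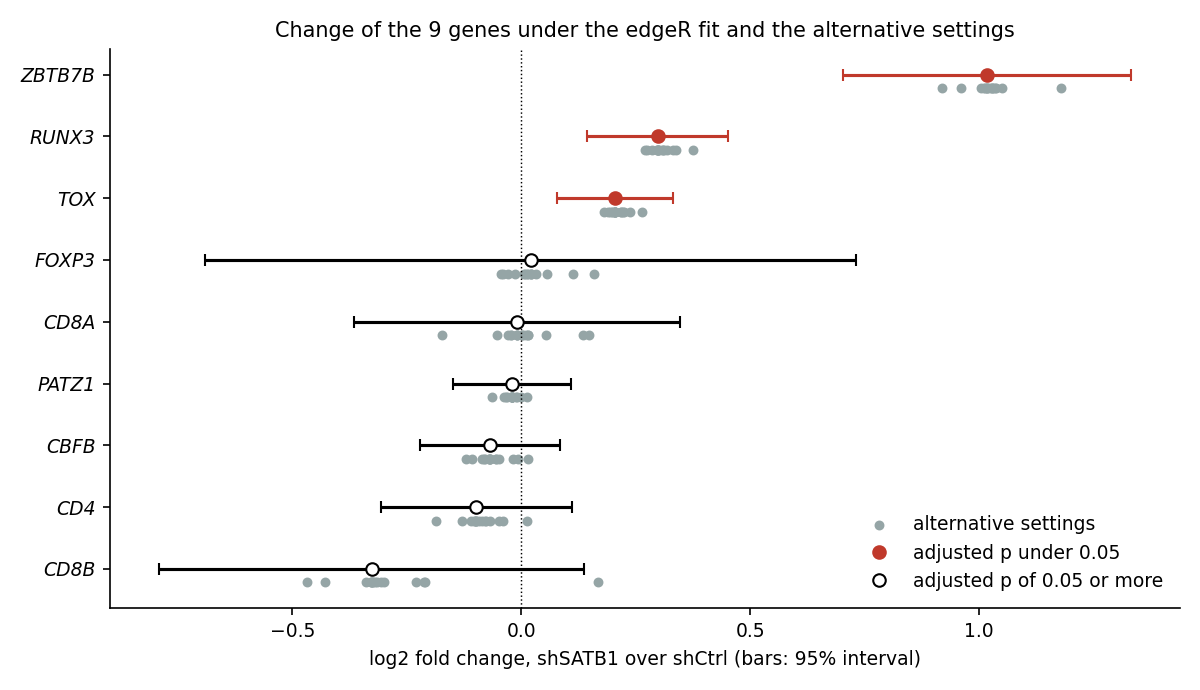
log2 fold change of shSATB1 over shCtrl for each of the 9 genes with its 95% interval (filled: adjusted p under 0.05), and below each the values under the alternative settings (grey). ZBTB7B at 1.02 stands apart from 0 under every setting shown, RUNX3 at 0.30 and TOX at 0.21 are smaller, and the widest interval is that of FOXP3, from -0.69 to 0.73.

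Per kilobase of merged exons the 9 genes covered a wide span, from TOX at 45.8 ± 0.798 CPM per kilobase in shSATB1 and 39.7 ± 1.39 in shCtrl to FOXP3 at 0.214 ± 0.0351 in shSATB1 and 0.211 ± 0.00836 in shCtrl. In both groups the order from the top was TOX, CBFB, PATZ1, RUNX3 and CD4, and no libraries of neighbours in that order overlapped. CBFB stood at 29.8 ± 2.34 CPM per kilobase in shSATB1 and 31.2 ± 1.74 in shCtrl, and PATZ1 at 15.8 ± 0.511 in shSATB1 and 16.1 ± 0.428 in shCtrl. RUNX3 followed at 7.54 ± 0.361 CPM per kilobase in shSATB1 and 6.13 ± 0.116 in shCtrl, and CD4 at 3.11 ± 0.345 in shSATB1 and 3.33 ± 0.115 in shCtrl. Below CD4 the order differed between the groups. In shSATB1 ZBTB7B was next at 1.61 ± 0.0257 CPM per kilobase, followed by CD8A at 1.17 ± 0.249 and CD8B at 0.893 ± 0.132, whose libraries overlapped. In shCtrl CD8A was next at 1.17 ± 0.0600 CPM per kilobase, followed by CD8B at 1.12 ± 0.196 and ZBTB7B at 0.796 ± 0.151; CD8B libraries overlapped those of CD8A and those of ZBTB7B. ZBTB7B lay above both CD8 genes in each shSATB1 library and below both in each shCtrl library. With the length of the longest transcript in place of merged exons, TOX and CBFB changed places in shCtrl, as did CD8A and CD8B.

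**Figure D3:**
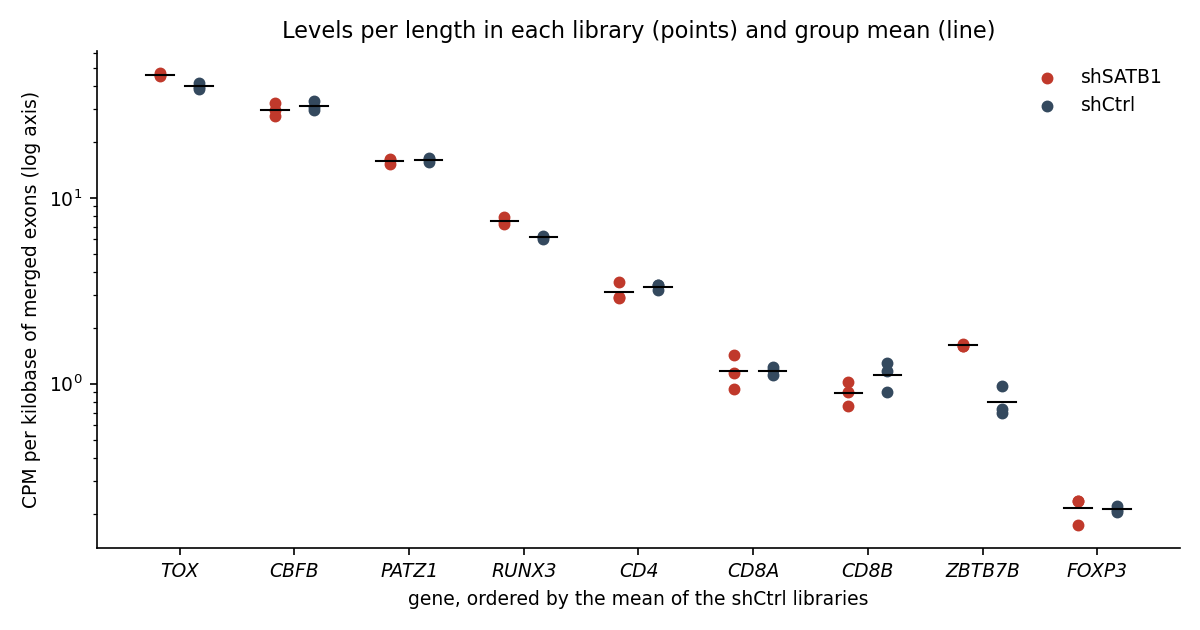
CPM per kilobase of merged exons on a log axis for the 9 genes, in order of the shCtrl mean; points are libraries (shSATB1 left, shCtrl right) and lines group means. ZBTB7B at 1.61 in shSATB1 lies above CD8A and CD8B, and at 0.796 in shCtrl it is the second lowest.

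The genes whose pattern over the 6 libraries was closest to each called gene were sought among tested genes of at least 10 CPM, by the Euclidean distance of centred log2 CPM. Closest to ZBTB7B were PLXNB2, a semaphorin receptor gene (distance 0.245), and MX2, an interferon-induced gene (0.270). PLXNB2 had 31.8 ± 1.09 CPM in shSATB1 and 16.3 ± 1.10 CPM in shCtrl. Closest to RUNX3 were IRF2BPL (0.0435) and DBN1 (0.0453), and closest to TOX were GPD1L (0.0382) and LEF1 (0.0398). LEF1, itself a factor of thymocyte development, had 977.8 ± 6.21 CPM in shSATB1 and 858.2 ± 21.4 CPM in shCtrl.

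Genes within 100 kb of the 9 were read from the same fit, since the study asks how SATB1 shapes genome folding. Of 63 tested neighbours, each counted once, 4 rose and 13 fell, or 27.0% called against 30.9% of all genes tested. Falls numbered 6 without shSATB1 replicate 1, 7 without shSATB1 replicate 3, 7 without shCtrl replicate 3, 2 with the covariate and 2 against a 1.2-fold null. Around CD4, 7 of 18 neighbours fell and 1 rose (44.4% called), while CD4 did not pass. Around ZBTB7B, 3 of 13 fell and 1 rose (30.8% called, near the share over all genes tested). Of all genes tested 14.3% rose and 16.6% fell. FLAD1, the nearest tested gene on its left (9519 bases away), had 49.7 ± 2.83 CPM in shSATB1 and 59.4 ± 4.57 CPM in shCtrl (log2 fold change -0.26, adjusted p = 0.0169, edgeR), a call lost without shSATB1 replicates 1 and 3 (adjusted p = 0.0659 and 0.112), without shCtrl replicate 3 (0.0555), with the covariate (0.873) and against a 1.2-fold null (0.702). CLIC4, the 1 tested gene within 100 kb of RUNX3 (55187 bases away), rose with it, at 168.8 ± 7.59 CPM in shSATB1 and 125.2 ± 2.50 CPM in shCtrl (log2 fold change 0.43, SE 0.0604, adjusted p = 0.000171, edgeR), and kept its call in each of 16 settings. PIK3IP1, the nearest on the left of PATZ1, rose to 10.5 ± 1.04 CPM in shSATB1, against 7.10 ± 0.452 CPM in shCtrl (log2 fold change 0.57, SE 0.113, adjusted p = 0.00199, edgeR).

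**Figure D4:**
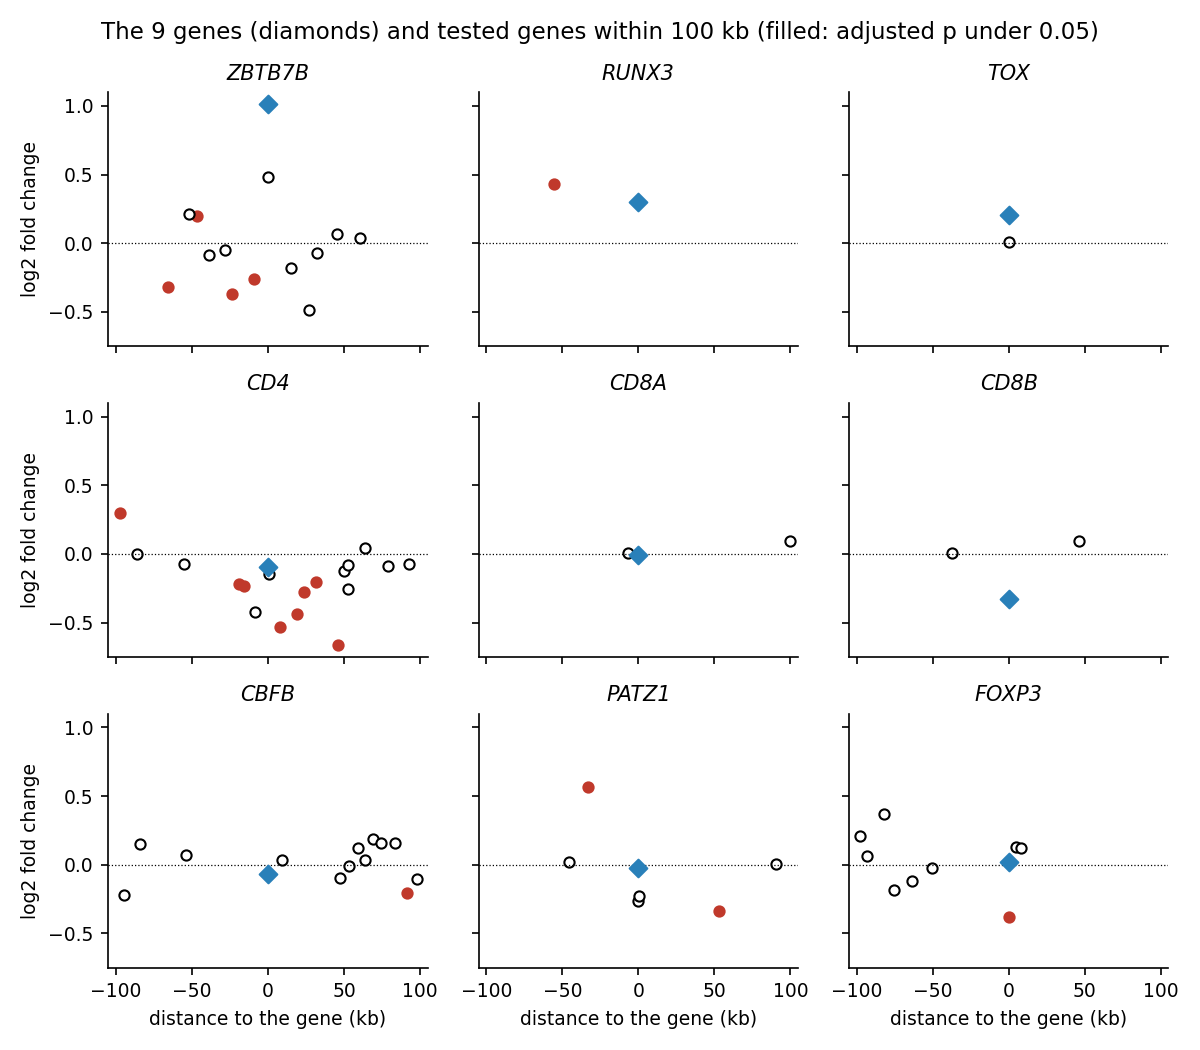
log2 fold change of shSATB1 over shCtrl for each of the 9 genes (blue diamonds) and the tested genes within 100 kb, by distance to the gene in kb (overlapping genes at 0; filled points have an adjusted p under 0.05). ZBTB7B at 1.02 stands above its 13 neighbours. CD4 lies among 18 neighbours of which 7 fell and 1 rose (44.4% called, against 30.9% of all genes tested).

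Other factors of the lineage choice were read from the same fit. Of 16 such transcription factors, 8 rose and 2 fell (62.5% called, against 30.9% of all genes tested, 14.3% as rises and 16.6% as falls), with a median log2 fold change of 0.24 against 0.01 over all genes tested. The largest called changes were those of MAF, EGR2 and ID2. MAF and EGR2, both among the 8 rises, passed the filter on low counts only through the shSATB1 libraries. That they were tested thus depended on the group where they were high, and their calls add no support to the count of rises. MAF, a factor of helper cells, had 18, 41 and 35 reads in shSATB1 and 8, 6 and 7 reads in shCtrl (log2 fold change 2.10, SE 0.395, adjusted p = 0.00138, edgeR). EGR2, which responds to receptor signals, had 32, 36 and 16 reads in shSATB1 and 12, 12 and 4 reads in shCtrl (log2 fold change 1.54, adjusted p = 0.0157). The EGR2 call was lost without shSATB1 replicates 1 and 2 (adjusted p = 0.0671 and 0.0855), without shCtrl replicate 3 (0.0762), with the covariate (0.0710) and against a 1.2-fold null (0.0516). ID2, an inhibitor of E proteins, rose to 6.93 ± 0.206 CPM in shSATB1, against 3.61 ± 0.790 CPM in shCtrl. The falls, named after their values were seen, were ETS1 (log2 fold change -0.31) and MYB (-0.27), and neither passed against a 1.2-fold null. Rises numbered 5 with the covariate and 4 against a 1.2-fold null.

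Among RUNX relatives and corepressors, 2 of 11 tested rose and 2 fell (median log2 fold change 0.11), and 36.4% called is near the 30.9% of all genes tested. CBFA2T3, a corepressor of the family that includes RUNX1T1, fell to 81.6 ± 3.13 CPM in shSATB1, against 119.2 ± 4.64 CPM in shCtrl (adjusted p = 3.35e-05, edgeR). SUV39H1, a histone methyltransferase, fell to 18.4 ± 1.44 CPM in shSATB1, against 25.3 ± 2.34 CPM in shCtrl, and lost its call with the covariate (adjusted p = 0.179). HIPK2, a kinase, had 112.9 ± 4.80 CPM in shSATB1 and 78.1 ± 18.9 CPM in shCtrl, and lost its call with the covariate, where the log2 fold change was -0.08 (adjusted p = 0.657). RUNX2, named after its values were seen, was the other rise, at 29.7 ± 2.33 CPM in shSATB1 and 21.6 ± 0.813 CPM in shCtrl (adjusted p = 0.000916, edgeR; 0.0552 with the covariate). RUNX1, also named after its values were seen, had 759.4 ± 30.5 CPM in shSATB1 and 690.2 ± 55.4 CPM in shCtrl and did not pass (adjusted p = 0.152). Without shCtrl replicate 1 rises numbered 5, RUNX1 among them (adjusted p = 0.0369), and with the covariate rises numbered 0 and falls 1. Of 7 tested relatives of the other genes 14.3% were called, against 30.9% of all genes tested. TOX2 was the 1 that rose, to 12.8 ± 1.97 CPM in shSATB1, against 6.13 ± 0.494 CPM in shCtrl (log2 fold change 1.06, SE 0.128, adjusted p = 5.69e-05, edgeR). TOX2 was named after its values were seen. TOX4 at 88.9 ± 3.97 CPM in shSATB1 and 85.9 ± 0.540 CPM in shCtrl, and FOXP4 at 57.3 ± 2.33 CPM in shSATB1 and 55.2 ± 1.67 CPM in shCtrl, did not pass (adjusted p = 0.569 and 0.567).

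Of 18 chromatin proteins known to act at the CD4, CD8 or FOXP3 loci, 6 rose and 5 fell (median log2 fold change -0.07), or 61.1% called against 30.9% of all genes tested. The largest changes were rises of the 3 TET genes, whose products oxidise methylated DNA. TET2 averaged 56.4 ± 4.38 CPM in shSATB1 and 32.3 ± 6.40 CPM in shCtrl, TET3 220.3 ± 2.73 CPM in shSATB1 and 152.1 ± 26.4 CPM in shCtrl, and TET1 32.4 ± 1.73 CPM in shSATB1 and 23.6 ± 3.87 CPM in shCtrl. Their adjusted p of 0.000163, 0.00111 and 0.00439 (edgeR) became 0.0624, 0.366 and 0.936 with the covariate, under which 0 of the 18 rose. Among the falls, named after their values were seen, were SMARCA4, the BRG1 remodeller ATPase, the histone deacetylase HDAC3, and the maintenance methylation genes DNMT1 and UHRF1, with log2 fold changes of -0.39 for SMARCA4, -0.31 for HDAC3, -0.26 for DNMT1 and -0.39 for UHRF1. HDAC3 lost its call with the covariate (adjusted p = 0.222). Falls numbered 8 without shCtrl replicate 1 and with the correction for gene length and GC content, and 0 against a 1.2-fold null. DNMT1 lost its call without shSATB1 replicate 3 (adjusted p = 0.0586). Another DNA methyltransferase gene of the list was among the 6 rises (log2 fold change 0.30, adjusted p = 0.0051, edgeR), a call lost with the covariate. The DNA methylation genes of the list thus showed no common direction.

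Signalling genes of the choice were also read. Of 12 genes around the coreceptor kinase, 5 rose and 4 fell (median log2 fold change -0.02), or 75.0% called against 30.9% of all genes tested. LCK, named for its place on the coreceptor tails, had 781.4 ± 36.6 CPM in shSATB1 and 877.4 ± 36.2 CPM in shCtrl and did not pass (adjusted p = 0.0600, edgeR). It stayed without a call in 11 of 16 alternative settings. The settings that called LCK as a fall included DESeq2 (adjusted p = 0.0417), limma-voom (0.0481) and the edgeR fit without shCtrl replicate 1 (0.0186). CD69, a marker of positive selection, rose to 26.4 ± 1.23 CPM in shSATB1, against 16.7 ± 1.08 CPM in shCtrl, and THEMIS, a regulator of selection signals, to 30.1 ± 1.01 CPM in shSATB1, against 19.8 ± 2.13 CPM in shCtrl (adjusted p = 0.0866 with the covariate). PTPRC (CD45), the phosphatase that activates LCK, had the largest change, a log2 fold change of 0.68 (SE 0.0626). The called genes by largest change were thus all rises, while 4 genes of the list fell. Among these falls was CD5, named after its values were seen, at 106.2 ± 4.59 CPM in shSATB1 and 133.4 ± 4.43 CPM in shCtrl. Its log2 fold change was -0.33 (SE 0.0615, adjusted p = 0.00131, edgeR), and the call held in 15 of 16 alternative settings. Falls numbered 1 without shSATB1 replicate 1, 1 without shSATB1 replicate 3, 2 without shCtrl replicate 3 and 2 with the covariate, under which rises numbered 3. Of 15 cytokine signalling genes, 6 rose and 1 fell (median log2 fold change 0.16), or 46.7% called against the same 30.9%. IL2RB, a receptor chain for interleukins 2 and 15, rose to 11.9 ± 1.09 CPM in shSATB1, against 5.67 ± 1.17 CPM in shCtrl, and the kinase gene JAK3 to 35.0 ± 1.23 CPM in shSATB1, against 24.6 ± 2.06 CPM in shCtrl (adjusted p = 0.0619 with the covariate, under which 3 of the list rose). STAT5A, which acts downstream of both, was the 1 fall, to 80.6 ± 2.26 CPM in shSATB1, against 121.1 ± 4.04 CPM in shCtrl (adjusted p = 1.53e-05, edgeR), and falls numbered 3 without shCtrl replicate 2 and 2 without shCtrl replicate 1.

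Genes typical of mature CD8 and CD4 cells were read beside the coreceptors. Of 16 genes of the CD8 cytotoxic programme 8 passed the filter on low counts, of which 4 rose and 0 fell (median log2 fold change 0.44), while CD8A and CD8B did not pass. That is 50% of the 8 called, against 30.9% of all genes tested, of which 14.3% rose. GZMA, PRF1 and EOMES had the largest changes, with log2 fold changes of 1.65, 1.32 and 0.97. NKG7, named after its values were seen, was the other rise. TBX21, which encodes T-bet, had 1.61 ± 0.118 CPM in shSATB1 and 1.62 ± 0.159 CPM in shCtrl (adjusted p = 0.980, edgeR), a gene named after its values were seen. Of 18 genes of helper or regulatory cells 12 were tested, of which 5 rose and 1 fell (median log2 fold change 0.14; 50% called, against the same 30.9%), while CD4 and FOXP3 did not pass. IKZF2 (Helios) rose to 566.7 ± 49.0 CPM in shSATB1, against 319.9 ± 58.3 CPM in shCtrl, and PRDM1 (Blimp-1) to 4.07 ± 0.350 CPM in shSATB1, against 2.11 ± 0.222 CPM in shCtrl. IL10 rose on very few reads, with 10, 16 and 15 in shSATB1 and 7, 1 and 4 in shCtrl. It passed the filter on low counts only through the shSATB1 libraries, where it was high, and so adds no support to the count of 5 rises. Its call (adjusted p = 0.0252, edgeR) was lost without shSATB1 replicates 2 and 3 (0.0937 and 0.0881), without shCtrl replicates 2 and 3 (0.0885 and 0.0799), with the covariate (0.805) and against a 1.2-fold null (0.0751). The other rises, named after their values were seen, were CD40LG, the helper ligand of B cells (45.2 ± 0.509 CPM in shSATB1 and 26.7 ± 1.57 CPM in shCtrl), and BCL6, and the fall was NT5E. BCL6 (adjusted p = 0.0466) passed without shCtrl replicate 1 and lost its call in the other 5 omissions (0.0776 to 0.130), and NT5E (adjusted p = 0.0429) lost its call in all 6 omissions (0.0552 to 0.153). With the covariate both lost their calls (adjusted p = 0.840 for BCL6 and 0.284 for NT5E). Over all 16 alternative settings BCL6 kept its call in 7 and NT5E in 4. Falls of this list numbered 0 by DESeq2 and with upper quartile normalization. Rises of this list numbered 3 without shSATB1 replicates 2 or 3, without shCtrl replicates 2 or 3, by DESeq2 and with the covariate.

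**Figure D5:**
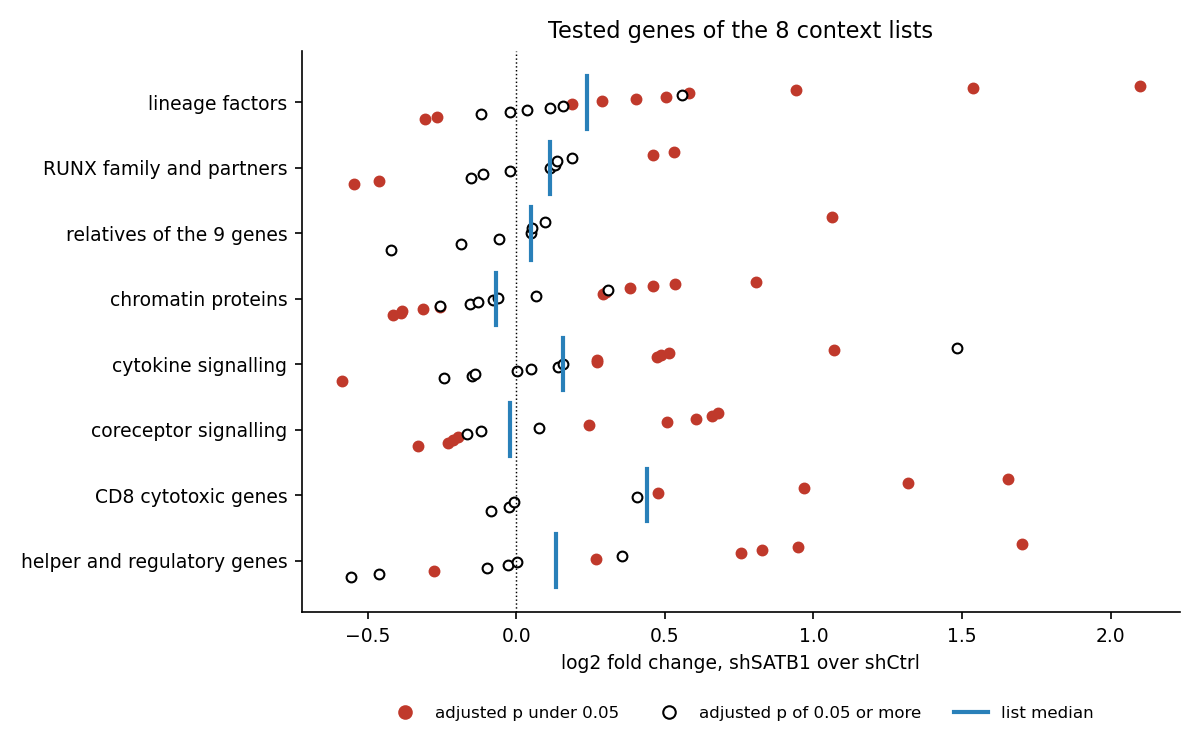
log2 fold change of shSATB1 over shCtrl for the tested genes of the 8 lists (filled: adjusted p under 0.05) with each list's median (blue line). The medians run from -0.07 for the chromatin proteins to 0.44 for the CD8 cytotoxic genes.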

How the data were processed

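RNA from 3 shSATB1 and 3 shCtrl libraries of Jurkat cells was analysed. The deposited files hold raw read counts per Ensembl gene, made by the authors; Trim Galore, STAR, HTSeq and hg38 are named in the submitters' processing notes, without versions; the strand setting is not stated. Reads in rows that name no gene (no annotated exon, ambiguous) were left out of library sizes; the ambiguous share was 9.11% ± 0.180 in shSATB1 and 9.84% ± 0.301 in shCtrl. All 58735 gene IDs matched GENCODE 29. The fit used edgeR 4.0.16 under R 4.3.3 (TMM scaling, genes kept by filterByExpr at a count of 10, quasi-likelihood F test, two-sided, Benjamini-Hochberg adjustment, threshold 0.05), after the script had been tested on simulated data. CPM uses TMM-adjusted library sizes. The 95% intervals come from that fit. Alternatives used DESeq2 1.42.0, limma 3.58.1 (voom), other normalizations and filters, a replicate block, the no-exon share as covariate, a length and GC correction, a 1.2-fold null and each library left out. The reads carry no molecular identifiers, so limits given as read counts cover counting error only. The 95% intervals also take in the variation among these libraries.

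The 9 genes, the lists and the rules were chosen with earlier results of these data known. By rule, the text names the 9 genes and up to 3 called genes per list with the largest absolute log2 fold change (where fewer than 2 were called, the 2 of highest CPM). It also names overlapping genes, the nearest tested gene on each side, and the 2 closest patterns. Other genes of the lists are marked as named after their values were seen, except LCK, named outside the rule for its place on the coreceptor tails. Promoter windows are those of RefSeq for GRCh38.p14. One gene of the chromatin list is not reported here by name.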

Additional observations from a re-analysis of the deposited data

Results flagged for a closer look

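Reads that fell in no annotated exon are outside the gene counts compared here, and their share was higher in the knockdown, with a mean of 11.4% in shSATB1 and 9.10% in shCtrl. The shares were 11.7%, 10.9% and 11.6% in shSATB1 1, 2 and 3 and 10.2%, 7.77% and 9.36% in shCtrl 1, 2 and 3, so that the groups did not overlap. With this share as a covariate, ZBTB7B, RUNX3 and TOX kept their calls (log2 fold changes 1.01, 0.38 and 0.26, with edgeR adjusted p of 0.00692, 0.0350 and 0.0200). The part of the share in the other results was not tested beyond that fit, and since it differs between the groups share and knockdown cannot be fully told apart.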

How the results depend on the processing

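ZBTB7B kept its call under each of 16 alternatives. RUNX3 lost it against a 1.2-fold null (log2 fold change 0.30), as did TOX (0.21), so that the member count of rises was 1 there. TOX also lost its call in 3 of 6 omissions of a library, with log2 fold changes from 0.18 to 0.24 over the 6, and rises then numbered 2. Over all genes, rises numbered 858 with the no-exon share as covariate, 758 against a 1.2-fold null and 1650 to 3218 over the omissions; falls numbered 1262, 698 and 1817 to 3562. Some log2 fold changes turned sign, among them those of SYF2 (-0.24) and HIPK2 (0.53), which had a call. With the covariate the log2 fold change was 0.0125 for CD4, 0.15 for CD8A, 0.17 for CD8B, 0.0150 for CBFB and -0.0279 for FOXP3. For genes beside the 9 it was 0.00422 for SYF2, -0.0792 for HIPK2 and -0.0851 for RUNX1. SYF2 lost its call there (adjusted p = 0.986, edgeR). CD8A also turned to 0.00222 with upper quartile normalization, 0.00967 with a filter of 1 CPM and 0.0538 with the length and GC correction, under which RUNX1 was at -0.0140. Over the omissions CD8A ran from -0.17 to 0.13, PATZ1 from -0.0376 to 0.0128, FOXP3 from -0.0442 to 0.159 and AC090152.1 from -0.0628 to 0.0891; without a filter AC090152.1 was at -0.00618. With longest-transcript lengths 5 of the 9 genes kept their rank in shCtrl. Against a 1.2-fold null, rises and falls numbered 4 and 0 among the lineage factors (8 and 2 in the report), 1 and 1 among the RUNX partners (2 and 2), 2 and 0 among the chromatin proteins (6 and 5), 3 rises among the cytokine genes (6), 0 falls among the coreceptor genes (4), 3 and 0 among the helper and regulatory genes (5 and 1) and 2 and 2 among the neighbours (4 and 13). The cause of these changes was not tested.

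Same-numbered replicates deviated together with correlations of 0.0798, 0.0712 and 0.0032, so the numbers were not taken as pairs. With the replicate number as a block, rises numbered 2783 and falls 3120 over all genes and 3 and 0 among the 9, with log2 fold changes of 1.02 for ZBTB7B, 0.30 for RUNX3 and 0.21 for TOX. Replicates 1 and 2 of shSATB1 correlated best with their own number in shCtrl, and replicate 3 did not. The block raised the falls among the cytokine genes to 2, from 1 without it, and lowered those among the helper and regulatory genes to 0, from 1. Depth limits FOXP3 and CD8B most.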
